A study of Nicotiana tabacum and Solanum tuberosum subsp. andigenum and Nicotiana sylvestris with 28 samples.

Results

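The clones described here are those with at least 1 spot on the array that gave, on average, a signal at least 2-fold lower in leaves of potato plants moved to short days (SD), against plants kept in long days (LD), and also in plants with reduced phytochrome B, against wild-type (WT) plants. They were chosen by these values. A spot of the array was taken as a member when it had a value on all 6 potato day-length arrays and all 3 phytochrome B arrays, its mean log2 ratio was 1 or more in both comparisons, and its gene symbol was empty or only a locus number (LOC). Of 13827 spots with all 9 values, 501 (3.62%) reached 1 in the day-length comparison, 289 (2.09%) in the phytochrome B comparison, and 130 (0.94%) in both. No spot was left out for another gene symbol. Each cDNA clone was printed in 2 spots, and the 130 spots belong to 80 clones, of the 10684 clones with a value on any array. In 50 clones both spots were members and in 30 only 1 was. The values below are means of the spots of a clone, so some lie below 1.

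Phytochrome B is a red and far-red light receptor, and in potato of the subspecies andigena it holds back tuber formation in LD. Leaves perceive the length of the day and send the signals that start tubers in potato and flowers in tobacco. Transcripts that are high in LD and depend on phytochrome B are therefore of interest as parts of the LD state of the leaf. The α-PHYB plants, from a single antisense line, were grown only in LD, so the arrays measured a difference between genotypes in LD and not whether the response to day length is lost without the receptor. The PHYB transcript itself carries no name in the probe annotation and was not analysed here.

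Andigena potato plants, which form tubers only in SD, were moved from LD to SD for 1 or 15 days and set against plants kept in LD, with 3 arrays for each time. RNA of α-PHYB plants was set against RNA of WT plants on 3 arrays, both in LD. Tobacco (Nicotiana tabacum) was treated in the same way in cv Hicks, which flowers irrespective of day length, and in its isogenic line with the Maryland Mammoth allele (MM), which flowers only in SD. Nicotiana sylvestris, which flowers only in LD, was moved from SD to LD for 1 or 15 days and set against plants kept in SD. Each of the Nicotiana comparisons has 3 arrays for each time. RNA of Nicotiana was hybridized to the same potato cDNA arrays. There 3602 to 7333 clones had a value on an array, against 8922 to 9887 with potato RNA. Members tested in Nicotiana are thus only those that gave a signal across species on every array of a comparison. By the sample titles, the potato LD control has the same name and number on the arrays of both days and of α-PHYB. Both ratios of the rule may thus share control RNA. LD had 16 h of light at 80 µE and SD 8 h at 160 µE, both at 22 °C, so light intensity differed with day length. All plants were harvested at 56 days, 14 h after lights on, which is in the light in LD and in the dark in SD. Every ratio is given as the log2 of LD over SD, or of WT over α-PHYB, so that a positive value means lower in SD-moved or α-PHYB plants (for N. sylvestris, higher in plants moved to LD). The deposited table does not state the direction of its ratios. That of the study was taken, and only the N. sylvestris ratios were turned. For N. sylvestris the sample titles give the reverse transfer to the one in the channel descriptions, and the descriptions were followed. In RNA of whole leaves, fewer cells of a type and less RNA per cell cannot be told apart.

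Only 5 locus symbols were found among the members, on 8 clones, 4 of them of LOC102596966. Several clones can thus carry the same gene. Whether unnamed clones do was not tested, so counts of clones are not counts of genes. The other 72 clones have no gene name in the annotation used here. They are given by the number of their first spot, and this annotation gives no role to any member. The study, which also required a test, names genes higher in LD and in WT than in α-PHYB plants. Among them are a homologue of GIGANTEA and genes for ent-kaurenoic acid oxidase and a β-ZIP transcription factor. Whether any member carries these genes was not determined. Just inside the threshold, spots 150980, 153163 and 156765 had phytochrome B means of 1.002, 1.007 and 1.007. Just outside it, spots 150136 and 146106 had phytochrome B means of 0.992 and 0.984, and spot 160091 had a potato mean of 0.998. For 13 of the 30 clones with 1 member spot the other spot was below 1 only in the phytochrome B comparison, for 4 only in potato, for 2 in both, and for 11 it lacked a value.

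**Figure D1:**
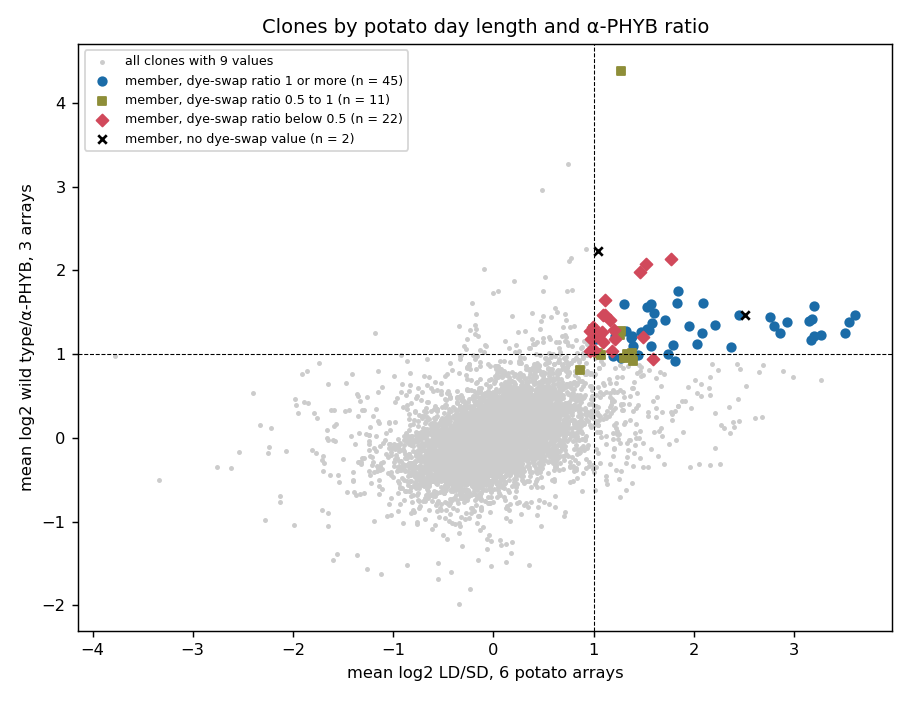
Mean log2 LD/SD over the 6 potato arrays (horizontal axis) against mean log2 WT/α-PHYB over the 3 arrays (vertical axis), each point a clone. The 80 member clones are coloured by their ratio on the array with exchanged dyes, and the dashed lines mark the threshold of 1. Members reached 3.61 in potato, and 1 clone stood apart at 4.39 in the phytochrome B comparison.

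In potato all 80 clones were positive on 6 of 6 arrays, as the rule all but requires, with means between 0.86 and 3.61 and a median of 1.45. The largest was clone 143677. Its ratios were 3.01, 3.66 and 4.26 (lowest, median and highest of 6 arrays), which means a 12.2-fold lower level in SD-moved plants. The means of 9 clones were 3 or more, and those of 20 were 2 or more. In the phytochrome B comparison the 80 means lay between 0.81 and 4.39 with a median of 1.26, and only 4 reached 2. The potato mean was the larger of the 2 in 53 clones.

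The clone with the largest phytochrome B ratio had a modest one for day length. Clone 148029 had ratios of 4.36, 5.81 and 2.99 on the 3 WT/α-PHYB arrays, a mean of 4.39. On the potato day-length arrays it had 1.02, 1.25 and 1.60 (lowest, median and highest). It had a value on only 1 of the 18 Nicotiana arrays, 0.28 in Hicks. The next largest phytochrome B means were 2.23 (clone 140619), 2.14 (clone 137181) and 2.08 (clone 160939).

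The third WT/α-PHYB array differed from the other two for many members. Of the 80 clones, 41 had their highest ratio on it, 31 on the second array and 8 on the first. Clone 143677 had 0.88, 1.07 and 2.46 on arrays 1 to 3, and clone 158263 had 0.72, 0.70 and 2.34. Clones 156039 and 158962 showed the opposite order, with 1.65, 2.001 and 0.51, and 1.73, 2.02 and 0.49. For each of these 4 clones the third array stood away from the other pair, upwards for 2 and downwards for 2. Without the third array, 56 of the 80 clones and 4 of the 9 with a potato mean of 3 or more kept a phytochrome B mean of 1 or more. Without the first array 71 did, and without the second 63. The phytochrome B side of the membership of the strongest day-length clones thus rested on the third array for 5 of 9. Without the second array 8 of the 9 kept a mean of 1 or more.

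One potato array repeated the RNA pair of 15 days, replicate 1, with the dyes exchanged. On the 6 arrays of the rule the LD sample was labelled with Cy3 and the SD sample with Cy5; on this array LD carried Cy5. This array was not used by the rule, and 78 of the 80 clones have a value on it. Its ratios were not turned, and over 8388 clones they correlated at 0.78 with those of its partner array. The members split on the array with exchanged dyes. The ratio was 1 or more for 45 clones, between 0.5 and 1 for 11, and below 0.5 for 22, of which 16 were below 0. These limits were set after the values had been seen. Of the members 28.2% were thus below 0.5, against 5.67% of 194 other clones with a potato mean of 1 or more. Of 82 other clones with a phytochrome B mean of 1 or more, 76.8% were below 0.5, but the median of these on the partner array was only 0.59.

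**Figure D2:**
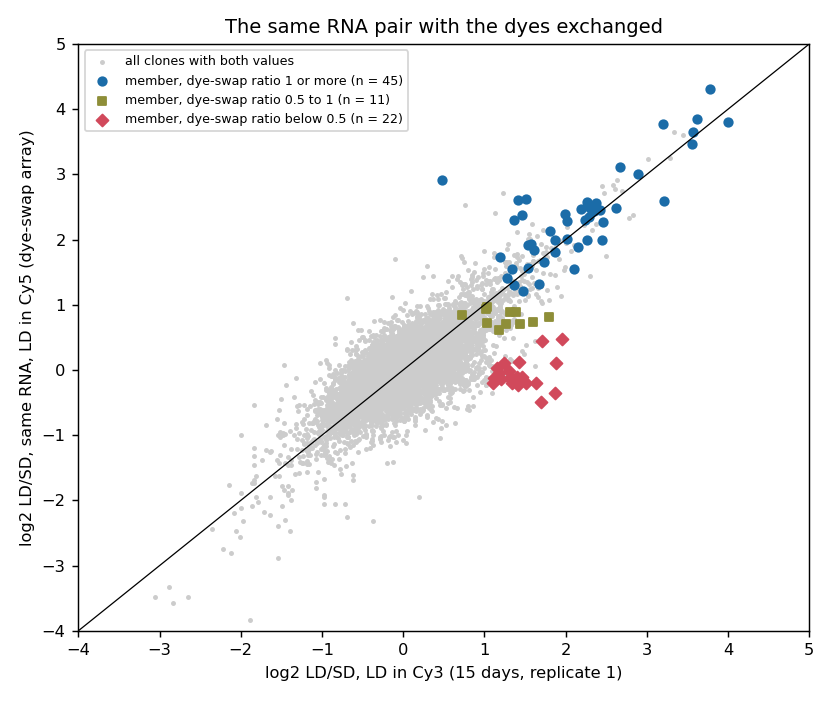
Log2 LD/SD of potato 15 days, replicate 1, with LD in Cy3 (horizontal axis) against the same RNA with LD in Cy5 (vertical axis), each point a clone; the line marks equal values. The 45 clones in blue lie around the line, and the 22 clones in red lie below it, between -0.49 and 0.48 with exchanged dyes against 1.10 to 1.96 without.

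The 45 clones had a median of 2.31 with exchanged dyes, against 2.10 on the partner array. Clone 143677 had 3.80 against 3.99, clone 158263 4.31 against 3.78, and clone 131223 3.47 against 3.56. All 9 clones with a potato mean of 3 or more were among these 45, with dye-swap ratios of 2.44 to 4.31. The lower level in SD-moved plants was thus measured with either dye in the clones with the largest day-length ratios. The 2 clones without a dye-swap value, 139488 and 140619, had potato means of 2.51 and 1.04 and phytochrome B means of 1.47 and 2.23. Clone 153825 was an exception to the closeness of the values, with 2.92 on the dye-swap array against 0.48 on its partner.

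The 22 clones had a median of -0.12 with exchanged dyes, against 1.39 on the partner array. Clone 137181 had -0.35 against 1.86, clone 160939 -0.49 against 1.69, clone 161285 0.11 against 1.88, and clone 136939 -0.15 against 1.37. All 22 were positive on every one of the 6 arrays of the rule, with means between 0.96 and 1.77. In this 1 pair of arrays the ratio of these clones was thus at most 0.48 with LD in Cy5 and at least 1.10 with LD in Cy3. The difference of the pair, divided by 2, gives a dye term for each clone. It was above 0.53, the 99th percentile over 8388 clones, for each of the 22 and for none of the other members with both arrays. The 22 clones were chosen by the dye-swap value, which enters this term, so that choice largely sets this result.

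No WT/α-PHYB array had exchanged dyes, so in that comparison dye and genotype cannot be told apart. WT was in Cy3 on all 3 arrays. Of the 45 clones, 34 had their highest ratio on the third of these arrays and 6 on the second. Of the 22 clones, 1 had it on the third and 19 on the second. With the dye term subtracted, 42 of the 45 clones and 2 of the 22 had phytochrome B values of 1 or more, the 2 being clone 137181 at 1.03 and clone 161285 at 1.09. The sets were chosen by the dye-swap value, which enters the dye term, so that choice largely sets this split. With the dye term subtracted from both means of every spot, 45 of the 80 clones were still members. Clone 148029 remained at 4.34.

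Position on the array also differed. In the order of the spot numbers, with 26 columns, 10 of the 22 clones (45.5%) lay in column 23 of alternate blocks, where 1.32% of all clones with both arrays of the dye swap lie. None of the 45 and none of the 11 clones lay there. This place was noticed in the data, the layout is inferred from the spot numbers, and its part in the ratios was not tested. The 111 clones of that place had a median dye term of 0.10.

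**Figure D3:**
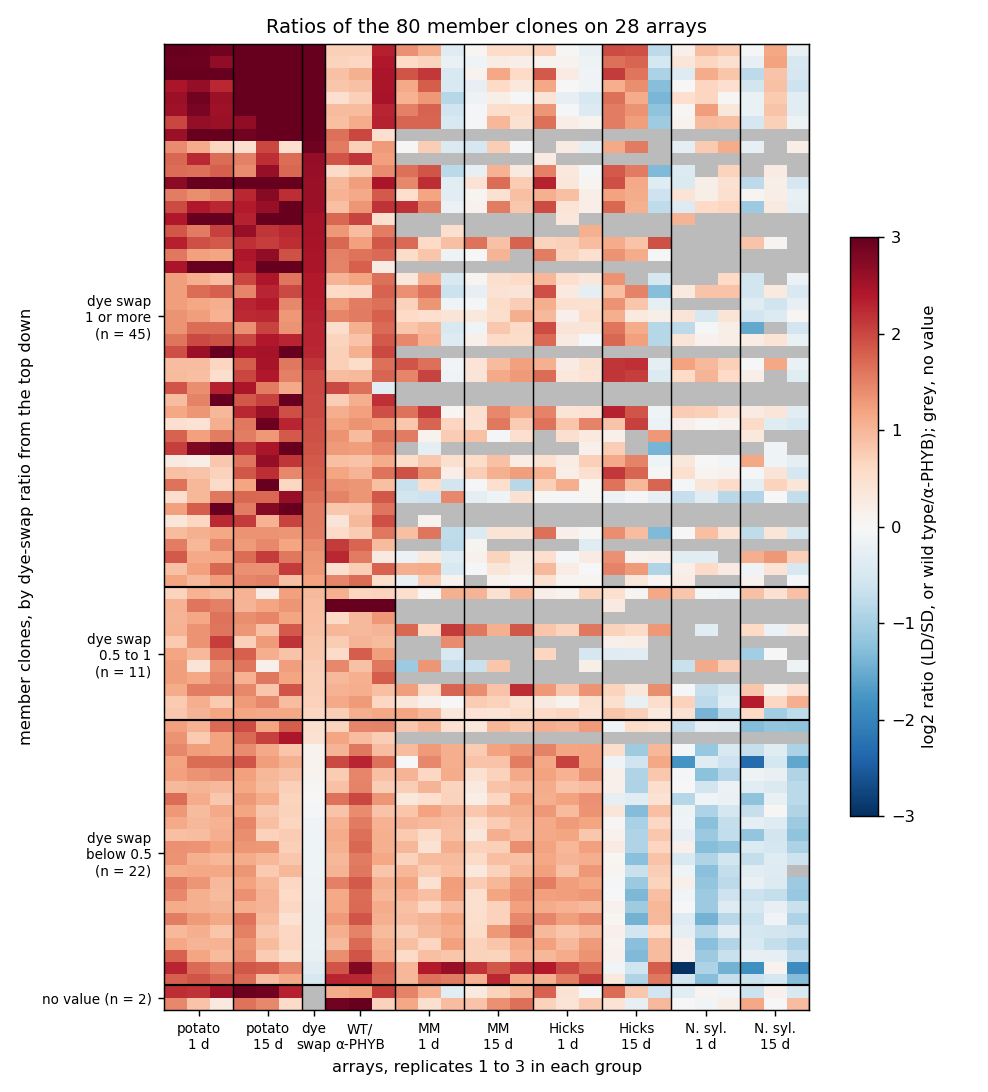
Log2 ratios of the 80 member clones (rows, by dye-swap ratio from the top down) on all 28 arrays (columns, replicates 1 to 3 in each group); red is higher in LD or WT, blue lower, and grey has no value. The block of 22 clones is red on potato, WT/α-PHYB and MM arrays and pale on the dye-swap array. It is mostly blue in N. sylvestris, where LD was in Cy5, and of both signs on Hicks arrays, where LD was in Cy3.

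The members' patterns over the 18 Nicotiana arrays, which neither the rule nor the dye-swap limits used, were also set side by side. Pairs among 20 of the 22 clones with all values had a median correlation of 0.94, pairs among 22 of the 45 one of 0.74, and pairs between the sets one of 0.05. After the mean of each comparison was taken away from its arrays, the medians were 0.86, 0.79 and -0.28. These values share their arrays and are a description only. Whether clones with like patterns are of the same gene was not tested. On the 3 Hicks arrays of 15 days, for example, the 45 clones had medians of 1.495, 1.26 and -0.48, and the 22 clones 0.11, -0.92 and 0.85.

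The loci with a number allow different clones of a gene to be compared. LOC102596966 is represented by 4 clones with values on the array, and all 4 were members. Their potato means were 1.71, 1.33, 1.39 and 1.38 (clones 142234, 144858, 150242 and 158446), and their phytochrome B means 1.41, 1.28, 0.97 and 1.21. On the dye-swap array they had 1.99, 1.81, 2.13 and 2.01. Different clones of this locus thus gave like values, in the day-length comparison with either dye. The phytochrome B values were measured with WT in Cy3 only.

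LOC102577434 had 1 member clone of 5, clone 156765, with 1.08 in potato and 0.99 for phytochrome B. The other 4 lay just below the threshold, and the 5 ranged over 0.81 to 1.08 and 0.82 to 0.99. On the dye-swap array clone 156765 had 0.62, and the other 4 had 0.61, 0.21, 0.47 and 0.51 (clones 145198, 154129, 155534 and 162173). LOC102577839 had 4 clones with potato means of 1.31 to 1.43 but phytochrome B means of 0.17 to 1.10, and only clone 148020 passed both limits, with 0.38, 0.97 and 1.94 on the WT/α-PHYB arrays. LOC102591911 had a single clone, 160954, with means of 1.74 and 1.00 and a dye-swap ratio of 2.38.

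LOC102587499 was the locus whose clones disagreed in sign. The member clone 140142 had a mean of 1.58 in potato and 1.60 for phytochrome B, and 2.31 on the dye-swap array. The other 5 clones with both means had potato means between -0.47 and -0.16 and phytochrome B means between -0.14 and 0.54. Whether clone 140142 carries this gene was not tested.

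In potato the ratios after 15 days of SD were compared with those after 1 day, since the rule used only their mean. The difference was tested with limma over 8272 clones, with a call where p was at most 0.05, the Benjamini-Hochberg adjusted p at most 0.1, and the size at least 1 on the log2 scale. No member was called, against 0.0604% of all clones called higher and 0.0363% called lower after 15 days, and 23 members had an unadjusted p under 0.05. Same-numbered arrays of 1 and 15 days deviated together in potato. With the replicate number as a block, 7 members were called, against 0.193% of all clones in that direction, all 7 larger after 15 days and all among the 45 clones.

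Of the 7 clones called with the replicate block, 4 were the clones of LOC102596966. Clone 142234 had 2.27, 2.59 and 1.94 after 15 days, against 1.16, 1.33 and 0.98 after 1 day. The difference was 1.11 ± 0.14 (SE, adjusted p = 0.077 in limma with the block, 0.152 without). For clones 144858, 150242 and 158446 the differences were 1.03, 1.13 and 1.18 (adjusted p = 0.0941, 0.0928 and 0.077 with the block, 0.285, 0.296 and 0.285 without). The 15-day and 1-day values did not overlap in clone 142234. The largest difference was that of clone 151893, with means of 2.13 after 15 days and 0.42 after 1 day (difference 1.71, adjusted p = 0.0845 with the block). The other 2 were clones 131223 and 151842, with 1.00 and 1.02.

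By dye-swap set the direction of this change was as follows. Of the 45 clones, 40 had a larger mean after 15 days, with a median difference of 0.52. Of the 22 clones, 19 had a smaller mean after 15 days, with a median difference of -0.15. Over all clones the median was 0.02. The dye-swap array holds RNA of 15 days, replicate 1, so the choice of the sets is not independent of these differences.

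In MM tobacco, which the rule did not use, 59 members had a value on all 6 arrays. Their mean LD/SD ratios ran between -0.17 and 2.03 with a median of 0.77, against a median of -0.01 over the 4355 clones tested, and 58 were positive. By limma 15 of 59 were called, all lower in SD-moved plants, where 1.95% of all clones were called in that direction. Without the limit on size 39 passed, against 13.5%. Same-numbered MM arrays deviated together, and with the replicate number as a random block 9 members were called, against 1.47% of all clones in that direction. The 2 arrays of replicate 2 correlated with each other (0.74) and not with the rest (-0.13 to 0.30). Without them 13 members were called, 10 of them the same, against 3.64% of all clones in that direction. With 1 day alone none of 62 was called and 35 had an unadjusted p under 0.05. Of all 4919 clones tested so, 0% were called lower in SD-moved plants and 5 clones were called higher.

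All 4 clones of LOC102596966 were called in MM. Clone 142234 had 0.07, 1.28 and 2.12 (lowest, median and highest of 6) and a mean of 1.14 ± 0.25 (SE, adjusted p = 0.0208). Clones 144858, 150242 and 158446 had means of 1.09, 1.01 and 1.04 (adjusted p = 0.0114, 0.0299 and 0.0299). Each was thus at about the same level as the other clones of the locus, with 1 array of replicate 3 near 0 in all 4. With the random replicate block none of the 4 passed (adjusted p = 0.129, 0.107, 0.224 and 0.197 in the order above). Without replicate 1, clones 150242 and 158446 did not pass (adjusted p = 0.12 and 0.123), and without replicate 2 only clone 144858 kept a mean of 1 or more (1.02).

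The largest MM ratios were those of clones 137181, 150136 and 160939. Clone 137181 had 0.99, 2.17 and 2.62 and a mean of 2.03 ± 0.20 (adjusted p = 0.00127). Clone 150136 had 0.59, 1.65 and 2.09 and a mean of 1.48 ± 0.20 (adjusted p = 0.00307). Clone 160939 had 1.00, 1.36 and 2.26 and a mean of 1.44 ± 0.18 (adjusted p = 0.00264). Clones 137181 and 160939 are the pair with the lowest ratios on the potato dye-swap array. MM has no array with exchanged dyes, and LD was in Cy3.

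By dye-swap set, 7 of 31 tested members of the 45 clones were called in MM, and 5 of 21 of the 22 clones. Medians were 0.57 and 0.89. When the dye term of potato was subtracted from the MM ratios, 9 of the 31 and none of the 21 were called, with medians of 0.80 and 0.17. In all 10 of 57 members were then called, all lower in SD-moved plants, against 1.63% of all clones in that direction. The sets were chosen by the dye-swap value that enters the dye term, so that choice bears on these counts and medians. The dye term comes from 1 pair of potato arrays, and how well it holds for tobacco RNA was not tested.

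**Figure D4:**
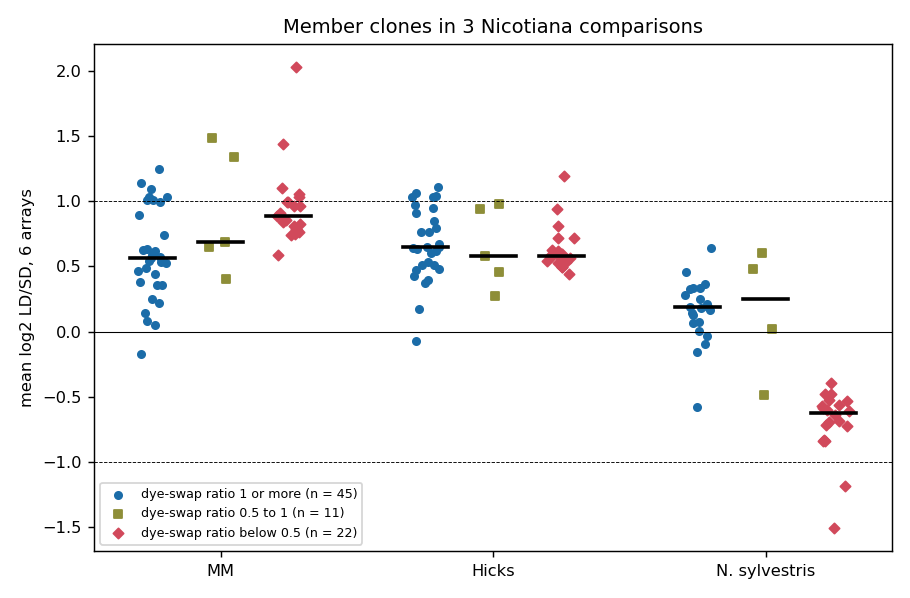
Mean log2 LD/SD over 6 arrays of member clones with all values in MM, Hicks and N. sylvestris, by their potato dye-swap ratio; each point is a clone, bars are medians, and dashed lines mark 1 and -1. The red clones have positive means in MM and Hicks, where LD was in Cy3, and all 20 have negative means in N. sylvestris, where LD was in Cy5. In Hicks their median was 1.19 with 1 day alone but -0.009 with 15 days alone, under the same labelling.

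In Hicks 57 members were tested, with means between -0.07 and 1.19 and a median of 0.60, against 0.03 over all 3914 clones, and 56 were positive. In limma 6 were called, all lower in SD-moved plants, against 0.588% of all clones in that direction. Without the limit on size 17 passed, against 4.98%. With 1 day alone 22 of 59 were called, all lower in SD-moved plants, against 1.83% of all clones in that direction. With 15 days alone none of 57 was called, and 12 members had an unadjusted p under 0.05. Of all 4440 clones tested so, 3 (0.0676%) were called lower and 9 higher in SD-moved plants. Of the 22 called after 1 day, 19 were among the 22 clones with a dye-swap ratio below 0.5. Without replicate 3, 20 members were called, and without replicate 1, 2 were, all lower in SD-moved plants. The shares of all clones in that direction were 0.925% and 0.758%.

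The clones called in both tobaccos were 134222, 137181 and 2 clones of LOC102596966. Clone 134222 had the most even values, with 0.60, 1.27 and 1.76 in MM (mean 1.25 ± 0.18, adjusted p = 0.0046) and 0.66, 0.89 and 1.91 in Hicks (mean 1.03 ± 0.16, adjusted p = 0.00844). It was positive on all 12 tobacco arrays, and with the random replicate block it was still called in MM (adjusted p = 0.0299). In potato it had 1.85, 2.13 and 2.33, with 2.47 on the dye-swap array, and 1.72, 1.22 and 1.87 for WT over α-PHYB. This clone was thus higher in LD-kept potato, MM and Hicks and in WT potato on every array with a value. In the potato day-length comparison it was so with either dye. On the 2 N. sylvestris arrays with a value it had 0.86 and 0.07.

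Clones 142234 and 158446 of LOC102596966 had Hicks means of 1.06 ± 0.29 and 1.04 ± 0.32 (adjusted p = 0.0606 and 0.0893). Clones 144858 and 150242 had 0.95 and 0.97, which passed the test (adjusted p = 0.0616 and 0.0952) but not the limit on size. Clone 153493, without a symbol, had -0.18, 1.16 and 2.06 and a mean of 1.11 ± 0.24 (adjusted p = 0.0259). Clone 137181 had -0.59, 1.75 and 2.38 and a mean of 1.19 ± 0.36 (adjusted p = 0.0841), and its values did not all have the same sign. Clone 150681 was the other clone called in Hicks, at 1.04, and had -0.17 in MM.

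The difference between MM and Hicks, which would mark members whose response differs between the SD-flowering line and the day-neutral one, was called for none of 56 members in limma, and for none (0%) of 3466 clones in either direction. Of the 56 members, 2 had an unadjusted p under 0.05, clone 150681 with a difference of -1.21 ± 0.31 and clone 140619 with 0.57 ± 0.23. Differences ranged between -1.21 and 0.84, with a median of 0.14.

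In N. sylvestris, where the plants were moved to LD, 48 members were tested. The means ran between -1.51 and 0.64 with a median of -0.13, against 0.00 over 2314 clones. In limma 2 members were called, both lower in plants moved to LD, against 0.691% of all clones in that direction. Without the limit on size 14 passed, all negative, against 5.83% of all clones negative. Of the 48 tested members 22 were positive and none of these passed. Of all 2314 clones tested, 61 (2.64%) passed as positive. At so small a share, none of 48 is not a result about the members. Same-numbered N. sylvestris arrays deviated together, and with the replicate number as a random block no member was called (17 had an unadjusted p under 0.05, and 0% of all clones were called in that direction). Without replicate 3 no member was called either, and 0% of all clones, and without replicate 1 only 1 was, against 0.766%.

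The called clones were 137181 and 161285. Clone 137181 had -3.08, -1.63 and 0.10 and a mean of -1.51 ± 0.35 (adjusted p = 0.0765). Clone 161285 had -2.31, -1.09 and -0.36 and a mean of -1.19 ± 0.27 (adjusted p = 0.0765). Both are among the 22 clones with low dye-swap ratios in potato, as are 13 of the 14 that passed the test. All 20 tested members of the 22 clones were negative, whereas 18 of 22 tested members of the 45 clones were positive, with medians of -0.63 and 0.19. With the dye term subtracted no member was called, and 5 members had an unadjusted p under 0.05. Of all 2243 clones tested so, 4 (0.178%) were called lower and 9 higher in plants moved to LD.

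**Figure D5:**
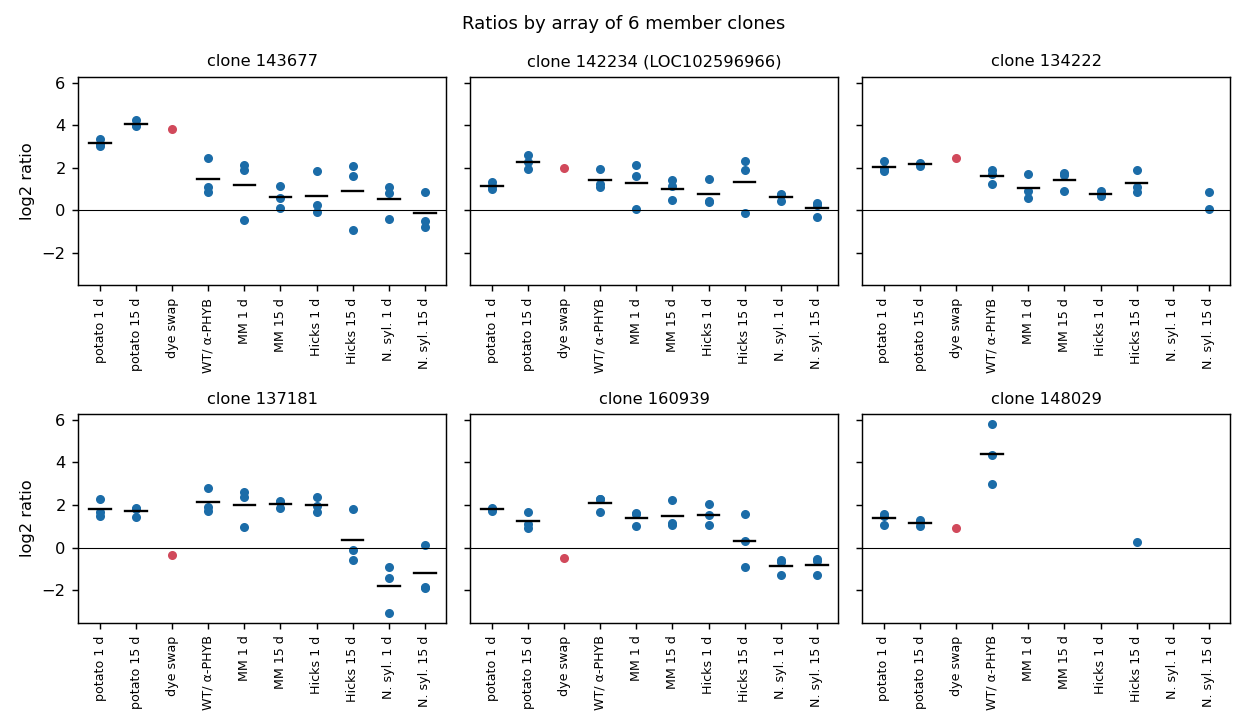
Log2 ratios by array of 6 member clones, in potato, on the dye-swap array (red), for WT/α-PHYB, and in MM, Hicks and N. sylvestris after 1 and 15 days; each point is an array and bars are means of 3. Clones 143677, 142234 and 134222 keep their ratio on the dye-swap array, clones 137181 and 160939 fall below 0 on it, and clone 148029 is highest for WT/α-PHYB.

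The ratio was larger in MM than in N. sylvestris for 25 of 48 members by limma, against 5.63% of 2239 clones called in that direction. Without the limit on size 29 passed, against 15.1%. Of the 25, 20 were the tested members of the 22 clones, 3 belonged to the 45 and 2 to the 11. These are counts of clones, and how many genes they stand for is not known. The smallest p-values were those of clones 160939, 143686, 138121 and 136939. Their differences were 2.28 ± 0.24, 1.42 ± 0.15, 1.71 ± 0.20 and 1.75 ± 0.21 (adjusted p = 0.000155 each in limma). These p-values take the arrays as independent, though same-numbered arrays deviated together in MM and in N. sylvestris. No random replicate block was fitted for this difference. LD was in Cy3 in MM and in Cy5 in N. sylvestris, and plants were moved to SD in MM and to LD in N. sylvestris. Dye, species and direction of the transfer cannot be told apart in this difference. With the dye term subtracted 4 of 46 members were called larger in MM, against 1.46% of all clones in that direction, and 1 of the 4 was among the 22 clones. With the N. sylvestris signs turned, as its sample titles would have it, 7 of 48 were called larger in MM, against 4.51% of all clones in that direction. Only 2 of the 7 were among the 25, and none was among the 22 clones. Clone 160939 then had a difference of 0.61 ± 0.24 (adjusted p = 0.124). This alternative was chosen after seeing the data. The 3 calls among the 45 clones included clone 144858 of LOC102596966 (1.01 ± 0.27, adjusted p = 0.0185; 1.17 and 0.0168 with the signs turned) and clone 144702 (1.18 ± 0.38, adjusted p = 0.0465; 0.87 and 0.166 with the signs turned).

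Of the 9 clones with a potato mean of 3 or more, 6 had a value on all 18 Nicotiana arrays and 3 had at most 1 in each comparison. Clone 143677 had -0.46, 0.87 and 2.11 in MM (mean 0.90 ± 0.33, adjusted p = 0.101) and -0.94, 0.93 and 2.10 in Hicks (mean 0.79 ± 0.36, adjusted p = 0.22), which did not pass. Clone 158263 had means of 0.54, 0.60 and 0.46 in MM, Hicks and N. sylvestris, none past the test. Clone 144702 was the only one of the 9 that was called, in MM (1.03 ± 0.30, adjusted p = 0.0523, or 0.189 with the random replicate block), with 0.91 in Hicks and -0.16 in N. sylvestris. Of the 80 members, 48 had all 18 Nicotiana values and 9 had none. Those 9 have no measurement outside potato.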

How the data were processed

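RNA of leaves (leaves and petioles in potato) was hybridized to 28 dual-channel potato cDNA arrays. On 27 of them the moved or α-PHYB plants are separate biological replicates, and the other repeats a pair already used, its dyes exchanged. By the sample titles, 1 sample of each pair has the same name and number on the arrays of 1 and 15 days, and in potato also on the WT/α-PHYB arrays. Whether these arrays share RNA was not tested, and if so their ratios are not independent. Per the labels and methods, the authors normalized each array by LOWESS and deposited 1 log2 ratio per spot, without intensities; their processing notes name limma. Ratios of N. sylvestris were turned to LD/SD and the 2 spots of a clone were averaged. No further scaling was applied, and array medians over clones lay between -0.07 and 0.01. The number of arrays limits the precision.

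Members and lists were chosen with earlier results of these data known. Potato and WT/α-PHYB ratios of members carry no test. The other comparisons were fitted over all clones with a value on every array by lmFit and eBayes (limma 3.58.1, R 4.3.3), with the limits of the methods on p (0.05), false discovery rate (0.1) and size (1 on the log2 scale); tables and figures were made in Python 3.11.15. The fits were tried on simulated arrays that were independent of each other and held no dye term. This trial therefore does not cover arrays that deviate together, or a dye term. Named clones are those with a locus symbol, the 6 with the largest sum of the 2 means, those called in 2 or more Nicotiana comparisons, up to 3 called per comparison and direction, up to 4 called in a difference between groups, and 3 spots on each side of the threshold; clones 139488, 140619, 150681, 151842, 151893, 153825 and 131223 were named after their values were seen.

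Same-numbered arrays of 1 and 15 days had deviations from the mean of their day that correlated at 0.41, 0.15 and 0.45 in potato, 0.54, 0.75 and 0.51 in MM, 0.86, 0.72 and 0.60 in N. sylvestris, and 0.31, -0.07 and 0.32 in Hicks, so the numbers were taken to pair arrays except in Hicks. The functional lists, marker check and promoter motifs that had been planned were not run, for want of descriptions and sequences. Alternatives were other tests, limits, scalings, filters, single days, blocks, a subtracted dye term, turned N. sylvestris signs and each replicate left out; a dye-swap ratio of 1 or more as an added condition, and turned signs in MM minus N. sylvestris, were chosen after seeing the data.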

Additional observations from a re-analysis of the deposited data

Results flagged for a closer look

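Among 87 sets of 6 arrays of the 26 named clones, 2 held a value far from the other 5, where chance gives about 1 in 20. Clone 134222 had 1.91 on replicate 3 of 15 days in Hicks, against 0.66 to 1.11 on the other Hicks arrays. Clone 140142 (LOC102587499) had 1.10 on replicate 3 of 15 days in MM, against 0.32 to 0.61.

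For 10 named clones the LD/SD ratio differed between MM and N. sylvestris in limma. With a dye-swap ratio below 0.5 in potato, the differences were 3.54 (clone 137181), 2.28 (160939), 2.15 (161285), 1.75 (136939), 1.71 (138121), 1.52 (158232) and 1.42 (143686), with adjusted p between 0.000155 and 0.0011. The other 3 were clones 144702 (1.18, adjusted p = 0.0465), 156765 (1.14, adjusted p = 0.0306) and 144858 (1.01, adjusted p = 0.0185). These p-values take same-numbered arrays as independent. LD was in Cy3 in MM and in Cy5 in N. sylvestris, and plants were moved to SD in MM and to LD in N. sylvestris. With the N. sylvestris signs turned, as the sample titles would have it, only clone 144858 of these 10 still passed (1.17, adjusted p = 0.0168). Clones 137181, 160939, 161285, 136939, 138121, 158232, 143686, 144702 and 156765 then had 0.52, 0.61, -0.22, 0.32, 0.49, 0.47, 0.23, 0.87 and 0.16.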

How the results depend on the processing

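With limits of 0.8 or 1.5 on both means the members would be 134 or 11 clones, with both spots past the limit 50, and with a dye-swap ratio of 1 or more also required 45; leaving out a replicate gave 71 to 84. In MM 39 members passed without the limit on size, none was called with 1 day alone and 9 with the replicate number as a random block; leaving out a replicate gave 12 to 15. In Hicks, where 6 were called, the methods' t-test called 3 by q-value and 1 after Benjamini-Hochberg, an adjusted p limit of 0.05 left 3, scaled arrays gave 10, no limit on size 17, 1 day alone 22 and 15 days alone 0; leaving out a replicate gave 2 to 20. In N. sylvestris 0 of the 2 calls were left with the methods' t-test after Benjamini-Hochberg, an adjusted p limit of 0.05, a value on most arrays in place of all, a subtracted dye term, 1 day alone or a random replicate block. No limit on size gave 14, 15 days alone 4 (2 positive and 2 negative), and leaving out a replicate 0 to 2. For MM minus N. sylvestris the subtracted dye term left 4, turned N. sylvestris signs (chosen after seeing the data) gave 7, and leaving out a replicate gave 21 to 24. For 15 days minus 1 day in potato, robust variance called 3 members, the fixed replicate block 7 and the dye-swap array averaged in 4; leaving out a replicate gave 0. MM minus Hicks had 0 under every alternative. The replicate block moved no other count by over 1.5 times. For the differences between groups only a fixed block was fitted. Where no alternative's construction shows it, the cause was not tested.

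With the N. sylvestris signs turned, the 2 calls are positive, and the ratios are 1.51 (clone 137181), 1.19 (161285), 0.83 (160939), 0.72 (136939), 0.61 (138121) and 0.60 (143686). With the dye term subtracted, clones 160939, 136939, 138121 and 143686 had 0.254, 0.044, 0.042 and 0.023, and none passed. Of the values of named clones under alternatives, 842 stayed on their side of the test (35 of them with the other sign, not passing), 147 no longer passed, 46 newly passed, and 10 others had the other sign where either value passed. The dye term rests on 1 pair of arrays, and no other comparison has exchanged dyes.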
